A study of Mus musculus with 10 samples.

Results

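The mitochondrial ribosomal protein genes were taken here as all protein-coding genes of the mouse whose symbol starts with Mrpl or Mrps, with pseudogene symbols left out, and they numbered 78 of the 51717 genes in the annotation used. The large subunit list (Mrpl) held 49 genes and the small subunit list (Mrps) held 29. The members were picked by symbol alone, although the group of genes was proposed with earlier results of these data known. Bulk RNA sequencing had been run on granulocyte-macrophage progenitors (GMPs), the bone marrow cells that give rise to neutrophils and monocytes. The WT group held 5 samples from male C57Bl6/N mice of genotype ROSA26 CreER+/-, and the recent Mpc2 KO group held 5 samples from male C57Bl6/N mice of genotype Mpc2 fl/fl; ROSA26 CreER+/-. Both groups ate tamoxifen chow for 2 wk and were taken down at its end, so the Cre recombinase and the drug were common to them. The methods describe CD45.2+ donor cells sorted from irradiated chimeric hosts, a Cre expressed from the ubiquitous ROSA26 locus, and recent KO samples that each pooled a pair of mice where a WT sample came from 1 mouse. Mpc2 encodes a subunit of the mitochondrial pyruvate carrier, and the comparison asks what its recent loss did to the transcriptome of these progenitors.

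Mitochondria keep a ribosome of their own, the mitoribosome, which translates the few mRNAs of the mitochondrial genome into core subunits of the respiratory chain and ATP synthase. Its rRNAs come from the mitochondrial genome, whereas all of its proteins are encoded in the nucleus, made in the cytosol and imported. Some of these proteins descend from bacterial ribosomal proteins and others have no bacterial counterpart, and the complex is built by dedicated assembly factors and served by mitochondrial tRNA synthetases and translation factors.

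No mitochondrial ribosomal protein gene passed the threshold between recent Mpc2 KO and WT GMPs, in either subunit, and the median member was within a few percent of WT. All 78 members passed the filter on low counts and were tested. At an adjusted p under 0.05 in edgeR's quasi-likelihood test, 0 of 49 large subunit and 0 of 29 small subunit genes were called, where 41 of all 12381 genes tested were called (0.331%). At an unadjusted p under 0.05 in the same test, 4 large and 3 small subunit genes passed, 8.97% of the members beside 10.2% of all genes. Of these members 6 were higher and 1 was lower in recent KO, beside 4.89% and 5.35% of all genes. DESeq2 also called 0 members at an adjusted p under 0.05 beside 1.09% of the genes it adjusted, with 8 members at an unadjusted p under 0.05. The share of members past the unadjusted threshold was thus near that of the background.

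The intervals of the differences were narrow. The 95% interval of the fold change lay within 1.2-fold of WT in either direction for 39 of 49 large subunit genes and 21 of 29 small subunit genes, where 27% of all genes tested had such an interval. Within 1.5-fold, the interval held for 77 of 78 members, beside 68.9% of all genes. The exception was Mrpl52, whose interval reached 1.53-fold. An interval within 1.5-fold was also found for 79 of 81 cytosolic ribosomal protein genes tested, 29 of 29 assembly factors and 14 of 14 translation factors. Within 1.2-fold these lists gave 40, 14 and 8 genes. The lowest bound of any member was 0.792 of WT, for Mrps15. Standard errors of the log2 fold change were between 0.052 and 0.13 among the members, with a median of 0.070, whereas the median over all genes was 0.12. The least covered member in any sample was Mrps31, with 372 estimated reads, and the sequencing depth was between 14033776 and 19745405 estimated reads per sample.

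**Figure D1:**
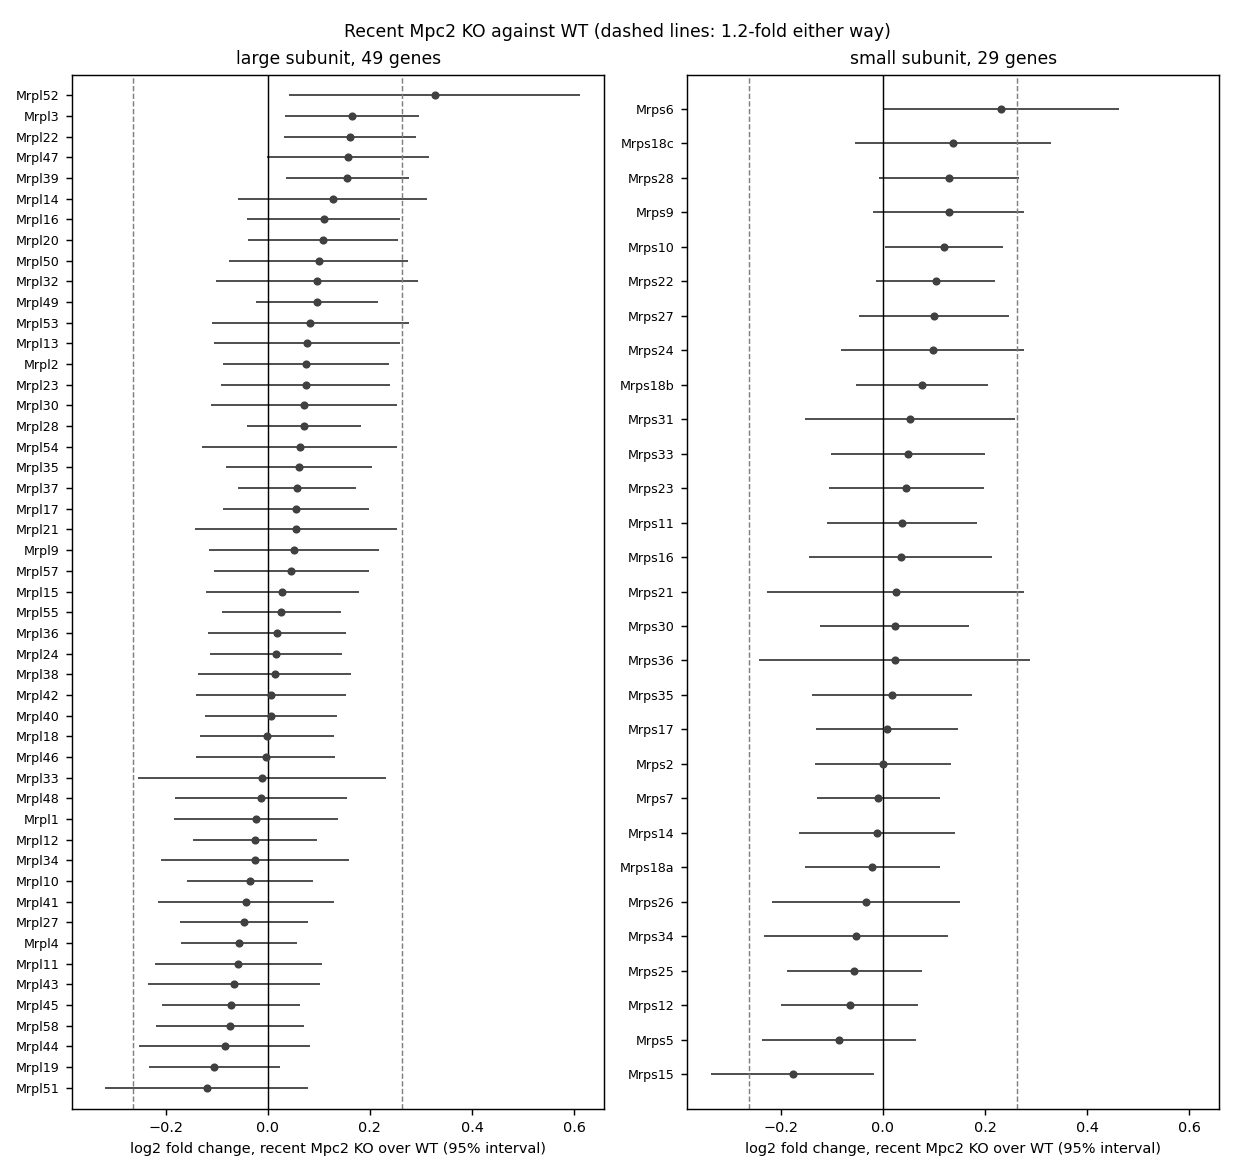
Log2 fold change of each mitochondrial ribosomal protein gene, recent Mpc2 KO over WT (x axis), by gene (y axis), for the 49 large and 29 small subunit genes. Points are edgeR estimates from 5 samples per group, lines are 95% intervals, and dashed lines mark 1.2-fold. Of the 78 intervals, 60 lie between the dashed lines, and that of Mrpl52 reaches furthest out.

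On balance the members leaned slightly to higher values in the recent KO group. The log2 fold change was above 0 for 31 of 49 large subunit genes, with a median of 0.029, and for 19 of 29 small subunit genes, with a median of 0.025. Over all genes tested, 49.6% were above 0 and the median was -0.0018. Genes of cytosolic ribosomal proteins leaned more, with 59 of 81 tested above 0 and a median of 0.038. Of related lists, 18 of 29 assembly factors, 6 of 14 translation factors and 1 of 5 mitochondrial ribosomal proteins with other symbols were above 0. In CPM the lean of the members was lost without 1 library. Without recent KO replicate 1, both subunit medians were -0.014, with 21 large and 14 small subunit genes above 0. Leaving out 1 sample at a time gave medians up to 0.051 in the large and 0.071 in the small subunit. In TPM, a unit that also divides reads by transcript length, the lean was larger, with 43 of 49 large and 25 of 29 small subunit genes above 0 in limma on log2(TPM + 1). All genes leaned the same way there, with 63.5% above 0 and a median of 0.048, beside medians of 0.089 and 0.077 in the large and small subunit. By the proteins' origin, the median was 0.056 for the 29 large subunit genes with a bacterial homolog and 0.010 for the 20 mitochondria-specific ones. In the small subunit it was 0.030 for 16 genes with a bacterial homolog and 0.048 for 10 mitochondria-specific ones.

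The summed level of each subunit showed the same library. Counts scaled to a common library size (CPM) summed over the 49 large subunit genes were 7100, 7067, 7379, 7432 and 7317 in WT replicates 1 to 5, and 8255, 6804, 7242, 7260 and 7241 in recent KO replicates 1 to 5. For the 29 small subunit genes the sums were 3548, 3509, 3634, 3627 and 3639 CPM in WT, and 4108, 3334, 3568, 3658 and 3574 CPM in recent KO. In both subunits recent KO replicate 1 was the highest of the 10 samples and recent KO replicate 2 the lowest, and the other 3 recent KO samples lay within the WT range, except replicate 4 for the small subunit, just above it. The group means were 7259 ± 166 and 7361 ± 536 CPM (SD, n = 5) for the large subunit and 3591 ± 59.1 and 3649 ± 284 CPM (SD, n = 5) for the small subunit. The spread between recent KO samples was thus larger than the difference between the groups.

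Gene by gene, recent KO replicate 1 held the highest CPM of the 10 samples for 50 of 78 members (64.1%), where it did so for 13.0% of all genes tested. Recent KO replicate 2 held the lowest CPM for 34 members (43.6%), beside 14.2% of all genes. The genes of the cytosolic ribosome, which translates nuclear mRNAs, shared the pattern more strongly, with 69 of 81 highest in recent KO replicate 1 and 45 of 81 lowest in recent KO replicate 2. The members also varied more within recent KO than within WT, with median coefficients of variation of 8.74% and 5.18%, whereas over all genes tested these were 13.5% and 12.2%. The part of recent KO replicates 1 and 2 in this was not tested. WT replicate 1 held the lowest CPM for 28 of the 81 cytosolic genes. In TPM the pattern of the members was weaker: recent KO replicate 1 was highest for 17 of them and recent KO replicate 2 lowest for 9. What sets these libraries apart, in the cells or in the transcript lengths covered, was not tested. In bulk samples a different mix of cells and a different amount of RNA per cell cannot be told apart.

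**Figure D2:**
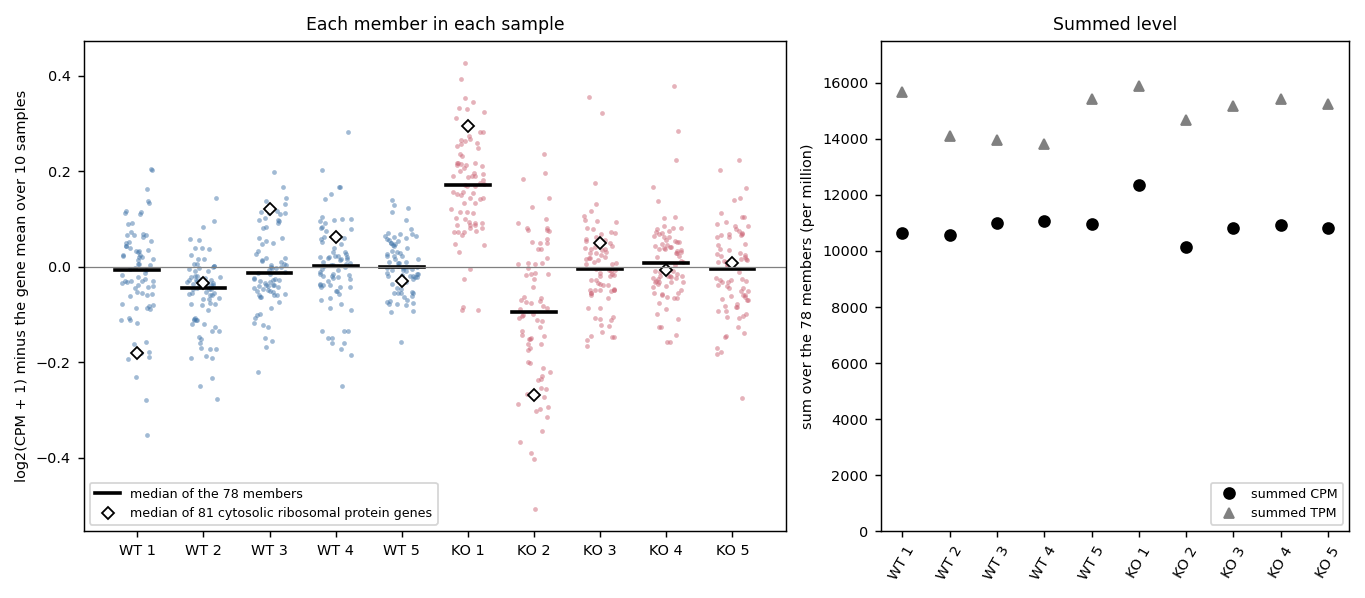
Left, log2(CPM + 1) of each of the 78 members minus that gene's mean over the 10 samples (y axis), by sample (x axis), with a line at the members' median and a diamond at the median of 81 cytosolic ribosomal protein genes. Right, CPM and TPM summed over the members (y axis) in each sample; recent KO 1 stands highest on both scales, at 12363 CPM and 15897 TPM, and recent KO 2 is lowest in CPM only, at 10139.

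In TPM the picture of single libraries differed. Summed TPM of the large subunit was 10454, 9380, 9330, 9168 and 10300 in WT replicates 1 to 5 and 10617, 9881, 10100, 10194 and 10122 in recent KO replicates 1 to 5. Means were 9726 ± 602 TPM in WT and 10183 ± 269 TPM in recent KO (SD, n = 5), and the ranges overlapped. For the small subunit the means were 4870 ± 281 TPM in WT and 5097 ± 189 TPM in recent KO (SD, n = 5). Without recent KO replicate 1 the recent KO means were 10074 ± 135 and 5052 ± 184 TPM (SD, n = 4), still above those of WT. On this scale WT replicate 1 held the highest value for 25 members and recent KO replicate 1 for 17. The ratio of large to small subunit sums hardly moved, at 2.00 ± 0.021 in WT and 2.00 ± 0.042 in recent KO (SD, n = 5), while the level of single members spread widely.

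Levels ranged 94.9-fold between members in WT. The highest large subunit genes were Mrpl33 at 1464 ± 93.3 TPM, Mrpl42 at 1030 ± 51.8 TPM, Mrpl17 at 410 ± 33.4 TPM and Mrpl54 at 348 ± 32.1 TPM (SD, n = 5). Mrpl33 and Mrpl17 encode homologs of bacterial ribosomal proteins, and Mrpl42 and Mrpl54 encode mitochondria-specific ones. At the other end stood Mrpl50 at 15.4 ± 2.34 TPM, Mrpl1 at 17.4 ± 1.33 TPM, Mrpl9 at 20.9 ± 2.90 TPM and Mrpl19 at 30.4 ± 2.11 TPM (SD, n = 5), of which only Mrpl50 has no bacterial homolog. Both ends of the ranking therefore held proteins of both origins.

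In the small subunit Mrps21 was highest at 656 ± 35.9 TPM, followed by Mrps18c at 480 ± 23.8 TPM, Mrps14 at 441 ± 27.1 TPM and Mrps12, whose product belongs to the decoding site, at 315 ± 21.7 TPM (SD, n = 5). Mrps30 at 18.6 ± 2.46 TPM, Mrps31 at 18.9 ± 3.23 TPM, Mrps2 at 20.4 ± 1.69 TPM and Mrps27 at 27.1 ± 3.39 TPM were lowest (SD, n = 5). The order of Mrps30, Mrps31 and Mrps2 changed between WT samples. The quartiles were 68.7 and 251 TPM in the large subunit and 56.2 and 219 TPM in the small subunit, with medians of 139 and 150 TPM. The ranking carried over to recent KO, with a Spearman correlation of 0.997 between the 2 groups' mean TPM across the 78 genes, which are not independent replicates. Members with a longer leading transcript had lower TPM, with a Spearman correlation of -0.69 across the 78 genes, while for CPM it was -0.28. Leading transcripts spanned 418 to 7300 bases, and the deposited TPM divides by the effective length.

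**Figure D3:**
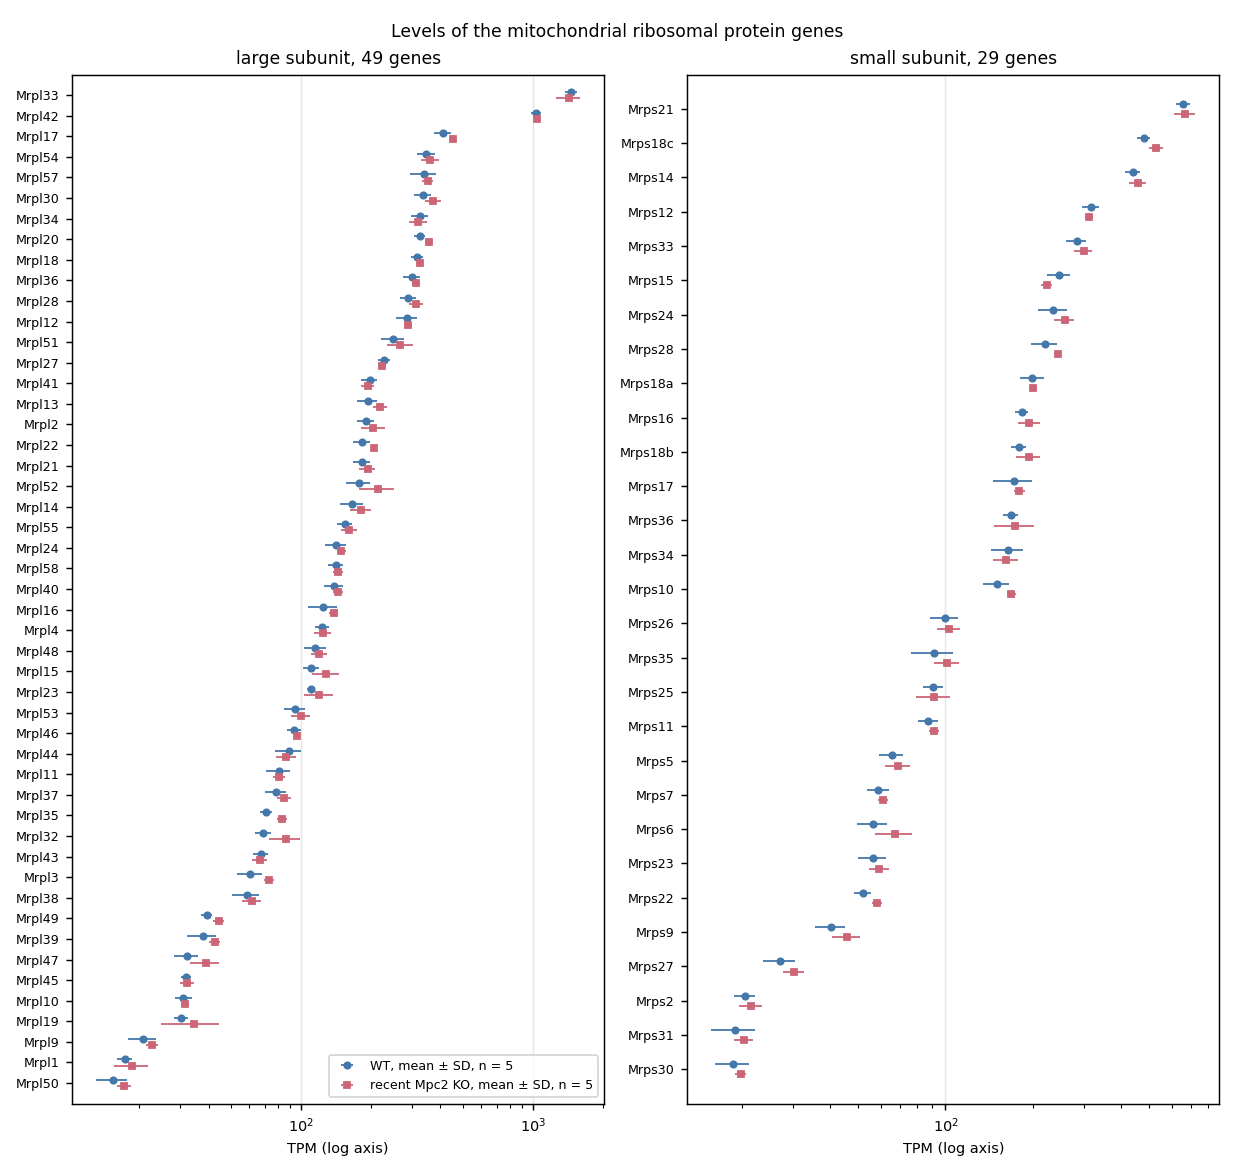
TPM (x axis, log scale) of each mitochondrial ribosomal protein gene (y axis, ranked by WT mean), as mean ± SD of 5 WT samples (circles) and 5 recent Mpc2 KO samples (squares). Mrpl33 and Mrpl42 stand apart at the top of the large subunit, above 1000 TPM, and Mrps21 leads the small subunit at 656 TPM in WT.

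Several members carry a symbol that differs from their place in the complex. The Mrps18 family has 3 members, of which only 2 sit in the small subunit: Mrps18a belongs to the large subunit by structure. In WT, Mrps18c stood at 480 TPM, Mrps18a at 199 ± 18.8 TPM and Mrps18b at 178 ± 10.3 TPM (SD, n = 5). Mrps18a was above Mrps18b in each WT sample, a difference that was not tested. The log2 fold changes of Mrps18c, Mrps18a and Mrps18b in recent KO were 0.14 (SE 0.089), -0.021 (SE 0.061) and 0.077 (SE 0.060), and none passed the edgeR threshold. Mrps30, also a large subunit protein by structure, had a log2 fold change of 0.023 (SE 0.068). Mrps36 encodes an adaptor of the 2-oxoglutarate dehydrogenase complex of the TCA cycle and no ribosomal protein, and its log2 fold change was 0.023 (SE 0.12). With Mrps18a and Mrps30 moved to the large subunit and Mrps36 left out, the medians were 0.027 and 0.036 and no member was called.

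Among large subunit genes the smallest unadjusted p belonged to Mrpl39, which encodes a mitochondria-specific protein related in sequence to threonyl-tRNA synthetase (chr16:84717576-84735742, minus strand, GRCm38). Its CPM was 93.2, 89.7, 84.3, 84.1 and 94.6 in WT replicates 1 to 5, against 99.1, 96.5, 103, 96.1 and 102 in recent KO replicates 1 to 5. All 5 recent KO samples lay above all 5 WT samples, by a small margin. The log2 fold change was 0.16 (SE 0.056), with an adjusted p of 0.353 in edgeR's quasi-likelihood test. The 2-sided exact permutation test gave p = 0.00794, the smallest that 5 samples against 5 can give. Any gene whose groups do not overlap gets this value, so it only restates the separation of a gene picked for its small p.

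Mrpl22, whose product lines the exit tunnel of the ribosome, was the other member whose groups did not overlap in CPM (chr11:58171661-58179565, plus strand, GRCm38). It gave 96.7, 95.4, 99.7, 101 and 100 CPM in WT, which is one of the tightest groups among the members, and 124, 104, 110, 103 and 110 CPM in recent KO. Recent KO replicate 1 was the highest. The log2 fold change was 0.16 (SE 0.060, adjusted p = 0.366 in edgeR). In all, 2 of 78 members separated, both higher in recent KO, beside 2.43% of all genes tested in either direction and 1.11% with recent KO higher. A share of 2.56% is near that background.

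Mrpl3, a protein near the peptidyl transferase centre, measured 90.6, 80.1, 81.5, 81 and 87.8 CPM in WT, against 104, 89.6, 95.2, 91.7 and 91.9 CPM in recent KO. Its groups overlapped only through WT replicate 1 and recent KO replicate 2, and its log2 fold change was 0.16 (SE 0.061, adjusted p = 0.366 in edgeR). Mrpl52 encodes a mitochondria-specific protein and had the largest log2 fold change of any member, 0.33 (SE 0.13, adjusted p = 0.417 in edgeR). Its CPM was 29.9, 29.0, 34.3, 30.9 and 35.3 in WT and 44.7, 26.4, 45.5, 46.2 and 36.9 in recent KO. Recent KO replicate 2 was the lowest of the 10 samples and the other 4 recent KO samples were above every WT sample. Without recent KO replicate 2 its log2 fold change was 0.44 and its adjusted p in edgeR was 0.0432, which made it the only member called in any setting run, in a fit that called 0.718% of all genes.

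The next genes of the large subunit were Mrpl47, a bacterial-type protein of the exit tunnel rim, with a log2 fold change of 0.16 (SE 0.074, adjusted p = 0.495 in edgeR), and Mrpl19, the bacterial-type protein at the other sign, with -0.10 (SE 0.059, adjusted p = 0.589 in edgeR). Mrpl19 averaged 124 ± 6.76 CPM in WT, against 116 ± 6.58 CPM in recent KO (SD, n = 5). On the TPM scale its direction turned, at 30.4 ± 2.11 TPM in WT and 34.6 ± 9.59 TPM in recent KO (SD, n = 5).

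In the small subunit the smallest unadjusted p belonged to Mrps15, an rRNA-binding protein with a bacterial homolog, and its direction was downward. Its CPM was 202, 173, 215, 210 and 196 in WT and 196, 155, 168, 184 and 179 in recent KO. WT replicate 2 lay inside the recent KO range and the groups overlapped. The log2 fold change was -0.18 (SE 0.074), with an adjusted p of 0.429 in edgeR's test.

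Mrps10, a protein of the small subunit head, gave 145, 138, 134, 135 and 141 CPM in WT, against 160, 143, 153, 155 and 142 CPM in recent KO, with a log2 fold change of 0.12 (SE 0.053, adjusted p = 0.458 in edgeR). Mrps6, a homolog of a bacterial platform protein, gave 41.6, 39.6, 36.6, 40.8 and 40.6 CPM in WT, against 50.6, 33.6, 53.9, 50.2 and 45.6 CPM in recent KO, with a log2 fold change of 0.23 (SE 0.11, adjusted p = 0.484 in edgeR). As with Mrpl52, recent KO replicate 2 was the lowest of the 10 samples for Mrps6 and the other 4 recent KO samples exceeded every WT sample. The log2 fold changes of Mrps28, the mitochondria-specific Mrps22 and the bacterial-type Mrps9 were 0.13 (SE 0.064), 0.10 (SE 0.054) and 0.13 (SE 0.068), with adjusted p-values of 0.511, 0.541 and 0.55 in edgeR. For Mrps22 the groups missed separation by 1 sample, with WT between 60.1 and 63.8 CPM and recent KO between 63.2 and 68.2 CPM.

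**Figure D4:**
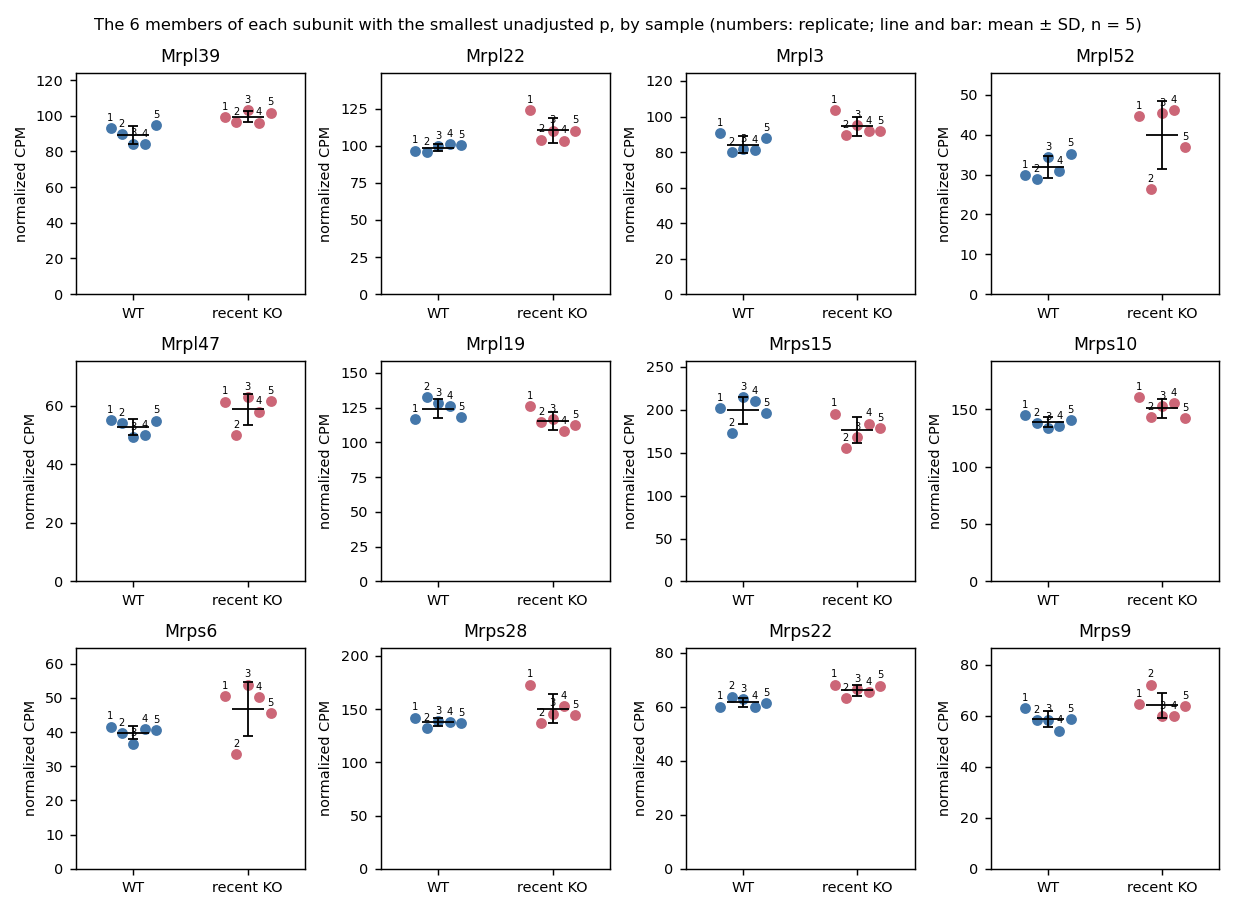
Normalized CPM (y axis) in each of 5 WT and 5 recent Mpc2 KO samples (x axis, numbered by replicate) for the 6 genes of each subunit with the smallest unadjusted p, with the mean ± SD. Only Mrpl39 and Mrpl22 have groups that do not overlap, and recent KO replicate 2 falls below every WT sample for Mrpl52, Mrpl19, Mrps6 and Mrps15.

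Which members separated depended on the unit. In TPM the groups of Mrpl39 and Mrpl22 overlapped, and Mrpl35 and Mrpl49 did not overlap, again 2 of 78 members and both higher in recent KO, beside 1.86% of all genes in either direction and 1.31% with recent KO higher. Mrpl35 had 70.6 ± 4.17 TPM in WT and 82.7 ± 4.17 TPM in recent KO (SD, n = 5), with an adjusted p of 0.306 in limma on log2(TPM + 1), the smallest of any member there. In CPM its log2 fold change was 0.062 (SE 0.066). Its reads were divided between a coding transcript of 3721 bases and a transcript of 707 bases annotated for nonsense-mediated decay, which took 15.8 ± 2.00% of them in WT and 18.5 ± 2.83% in recent KO (SD, n = 5). TPM divides the reads of each transcript by its effective length, so that a read on the shorter transcript counts for more. The shares of the 2 groups overlapped, and their part in the TPM difference was not tested.

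The 78 genes had 343 annotated transcripts, 170 of them protein-coding, 88 with a retained intron, 61 other processed transcripts and 24 annotated for nonsense-mediated decay. Of these, 212 were tested and 0 were called at an adjusted p under 0.05, where 11 of 26185 transcripts were called in all (0.042%). At an unadjusted p under 0.05 the count was 17, of which 11 were higher and 6 lower in recent KO, beside 6.15% of all transcripts tested. Protein-coding transcripts took 88.5 ± 0.58% of the members' estimated reads in WT and 87.9 ± 0.67% in recent KO (SD, n = 5). Transcripts annotated for decay took 4.3 ± 0.16% in WT and 4.66 ± 0.23% in recent KO (SD, n = 5), with overlapping ranges. No transcript's share of its gene separated the groups.

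The transcript with the smallest unadjusted p was Mrpl32-201, a transcript of 658 bases annotated for decay, from the gene of a large subunit protein that is cleaved after import before it joins the ribosome. It took 25.5 ± 2.73% of the gene's reads in WT and 35.1 ± 4.68% in recent KO (SD, n = 5), with an adjusted p of 0.587 in edgeR. The share of the coding transcript Mrpl32-202 was 50.8 ± 1.98% in WT and 49.4 ± 4.77% in recent KO (SD, n = 5), and that of Mrpl32-203 was 20.6 ± 5.28% and 13.4 ± 1.53% (SD, n = 5). For most members 1 transcript dominated, with a median leading share of 95.2% and 46 genes above 90%. In 6 members the leading transcript was not of the coding class: Mrpl3-204, Mrpl57-202, Mrps14-201, Mrps16-202, Mrps24-201 and Mrps26-201. Mrpl3-204, annotated for decay, took 69.5 ± 2.87% of the reads of Mrpl3 in WT and 71.3 ± 1.34% in recent KO (SD, n = 5).

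Near-identical copies elsewhere in the genome touched 17 members, counted as processed or other pseudogenes with at least 95% identity over at least 200 bases. Of these 21 pseudogenes, 20 had a WT mean under 1 CPM. The exception was Mrpl23-ps1, a processed pseudogene of Mrpl23 on chromosome 2, which the choice by symbol left out. It averaged 165 ± 15.4 CPM in WT, against 173 ± 23.5 CPM in recent KO, whereas Mrpl23 itself averaged 57.6 ± 5.21 and 60.6 ± 4.52 CPM (SD, n = 5). The pseudogene transcript repeats 540 bases of Mrpl23-201 without a mismatch, and this run holds the whole reading frame of 441 bases. The first 90 bases of both frames are shown because these bases alone do not tell the 2 loci apart, with the start codon in capitals:
Mrpl23-201: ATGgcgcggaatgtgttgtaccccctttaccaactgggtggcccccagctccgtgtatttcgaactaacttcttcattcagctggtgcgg
Mrpl23-ps1-201: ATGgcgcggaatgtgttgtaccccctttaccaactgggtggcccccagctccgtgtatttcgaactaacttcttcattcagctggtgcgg

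Only the first 150 and the last 2 bases of Mrpl23-201 lie outside the shared run. In the pseudogene transcript of 580 bases the run spans bases 2 to 541. The deposited effective length was 352 to 412 bases for Mrpl23-201 and 210 to 261 bases for the pseudogene transcript. Because the copies share reads, the CPM of Mrpl23 is uncertain. The sum of the pair was 223 ± 18.4 CPM in WT, against 234 ± 21.1 CPM in recent KO (SD, n = 5), and Mrpl23 took 25.9 ± 1.79% and 26.1 ± 3.33% of it. The difference of the sums was within the spread between samples (exact permutation test, 2-sided, p = 0.413), as was that of Mrpl23 alone (exact permutation test, 2-sided, p = 0.357).

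**Figure D5:**
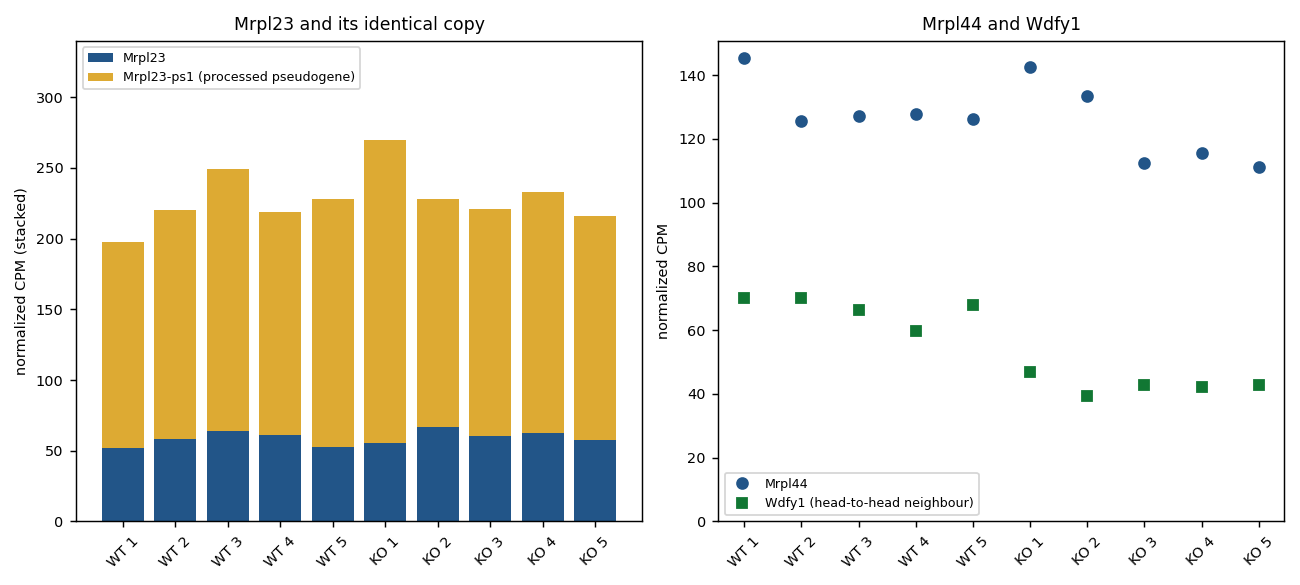
Left, normalized CPM (y axis) of Mrpl23 and of its processed pseudogene Mrpl23-ps1, stacked, in each sample (x axis); the pseudogene takes the larger part in all 10 samples. Right, normalized CPM of Mrpl44 and of its head-to-head neighbour Wdfy1; all recent KO samples of Wdfy1 lie below all WT samples, and those of Mrpl44 overlap with WT.

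Many members start close to a gene on the opposite strand. For 23 of 78 members (29.5%), the first base lay within 1000 bases of the first base of another protein-coding gene running the other way, or overlapped it by up to 300 bases, whereas 14.4% of all protein-coding genes tested had such a partner. The libraries are not stated to keep the strand, so reads in an overlap cannot be assigned to 1 of the 2 genes by strand. Of 22 partners tested, 1 was called. This was Wdfy1 (chr1:79702262-79776143, minus strand, GRCm38), which encodes an adaptor of Toll-like receptor signalling and overlaps the first bases of Mrpl44 (chr1:79776018-79781445, plus strand), a gene for a protein related to ribonuclease III.

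Wdfy1 fell in recent KO, from 70.0, 70.2, 66.4, 59.8 and 67.8 CPM in WT to 47.0, 39.2, 42.8, 42.3 and 42.8 CPM, a log2 fold change of -0.64 (SE 0.069, adjusted p = 3.7e-04 in edgeR). Mrpl44 had 145, 126, 127, 128 and 126 CPM in WT, against 143, 134, 113, 116 and 111 CPM in recent KO, a log2 fold change of -0.085 (SE 0.078, adjusted p = 0.794 in edgeR). The difference between the neighbours' changes was not tested. Other pairs, chosen here for their partners' function, were Mrps12 with Sars2, the mitochondrial seryl-tRNA synthetase, Mrpl36 with Ndufs6, a subunit of complex I, and Mrps27 with Ptcd2, a mitochondrial RNA-binding protein. The partners' log2 fold changes were 0.015, 0.035 and 0.025 in that order, and none passed the threshold.

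The members lay on 17 chromosomes. Of the 78, 12 (15.4%) lay within 5 Mb of a gene called at an adjusted p under 0.05 in edgeR, beside 13.4% of all uncalled genes tested. Their log2 fold changes were between -0.085 and 0.14, and 0 of 12 had an unadjusted p under 0.05 in the same fit. Among them, Mrps11 and Mrpl46, which start next to each other, were 653 and 663 kb from Polg, the mitochondrial DNA polymerase gene, which fell by 0.54 on the log2 scale (SE 0.10, adjusted p = 0.0466 in edgeR).

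Promoters of the members shared short motifs that the choice by symbol did not use. RefSeq promoters (GRCm38.p6, 250 bases before to 50 after the start) were matched for 69 of the 78 members, 75 promoters in all. The letters CCGGAAG, the core recognised by ETS-family factors, were found on either strand in 26 of 75 (34.7%), beside 18.7% of the promoters of protein-coding genes tested and 8.86% of all 32851 promoters. The letters AAGATGGC, the core recognised by YY1, were found on either strand in 12 of 75 (16.0%), beside 4.75% and 2.75%. The palindromic NRF1 motif was in 3 of 75 (4.00%, beside 2.23%), too few to compare. The other words searched on both strands were near the tested genes' share: TATAAA in 5 (6.67%, beside 6.86%), CACGTG in 7 (9.33%, beside 10.2%) and CCAAT in 30 (40.0%, beside 38.3%). CCGGAAG and AAGATGGC are different words, and a promoter can count for both. The motifs were chosen after the members' promoters had been seen, and a match does not show that a factor binds.

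Windows of 30 bases around a match are shown for 7 of the members described above, 5′ to 3′ on the gene's strand, with the motif in capitals, so that the shared letters can be read. The first 4 hold the ETS core and the last 3 the YY1 core:
Mrpl22, chr11:58171600-58171629, plus strand: cttttccggtcCCGGAAGccggcctcggac
Mrpl3, chr9:105053238-105053267, plus strand: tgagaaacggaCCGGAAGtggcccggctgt
Mrpl33, chr5:31613937-31613966, plus strand: ccgcgcatgccCCGGAAGtagtcgttgagc
Mrps22, chr9:98601672-98601701, minus strand: aacctctcgagCCGGAAGttgctctatcga
Mrpl42, chr10:95501904-95501933, minus strand: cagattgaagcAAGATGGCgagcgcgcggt
Mrps18a, chr17:46111004-46111033, plus strand: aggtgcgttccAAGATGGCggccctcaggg
Mrps27, chr13:99344789-99344818, plus strand: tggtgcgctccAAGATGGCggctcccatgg

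Mrps18a and Mrps27 held both motifs, as did Mrps12, whose windows are not shown. The ETS core began 53, 19, 3 and 11 bases before the RefSeq start in the 4 genes named first. The YY1 core began 28, 12 and 15 bases after the start, counting the start as base 1. Other named members had matches further from the start or on the opposite strand. In Mrpl17 the ETS core began 237 bases before it. The reversed ETS core of Mrps18c and the reversed YY1 core of Mrps12 began 156 and 199 bases before it. The windows shown thus give no common position or orientation of the motifs. Among the 7 genes shown, log2 fold changes ran from -0.021 in Mrps18a to 0.16 in Mrpl3.

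The partners of these proteins in mitochondrial translation also gave few calls. Among 5 ribosomal proteins that carry other symbols, 0 passed the adjusted threshold, and the gene with the smallest p was Aurkaip1, with a log2 fold change of -0.072 (SE 0.075, adjusted p = 0.820 in edgeR). The mitochondrial rRNAs mt-Rnr1 and mt-Rnr2 had log2 fold changes of 0.44 (SE 0.24) and 0.17 (SE 0.18) with 0 of 2 called, and recent KO replicate 1 was again the highest sample for both, at 99.4 and 1184 CPM. Without that library the log2 fold change of mt-Rnr1 was 0.23, and leaving out any 1 sample gave 0.23 to 0.61. The libraries were made with a SMARTseq V4 kit per the methods, and how far their reads on these rRNAs follow the amount of rRNA was not tested. Of 13 mitochondrial mRNAs, 0 were called and 9 were above 0, led by mt-Nd1, a complex I subunit, at 0.30 (SE 0.090, adjusted p = 0.226 in edgeR).

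Among 14 genes for translation factors and other regulators of mitochondrial gene expression, 0 were called. The list counts in Tefm, a transcription elongation factor, and Lrpprc and Slirp, which stabilise mitochondrial mRNAs. The gene with the smallest p was Mrrf, the ribosome recycling factor, at 31.4, 30.9, 31.6, 31.9 and 31.3 CPM in WT, against 28.9, 27.1, 28.9, 28.6 and 29.6 CPM in recent KO. The groups did not overlap, yet the difference was small, a log2 fold change of -0.14 (SE 0.059, adjusted p = 0.451 in edgeR). Among 29 assembly factors 0 were called, and Ngrn, needed for the mitochondrial large rRNA, had the smallest p with a log2 fold change of -0.26 (SE 0.077, adjusted p = 0.228 in edgeR). Among 20 genes for mitochondrial tRNA charging 0 were called. These are tRNA synthetases together with Gatb, Gatc and Qrsl1, subunits of the glutamyl-tRNA amidotransferase. Cars2, the cysteinyl synthetase, had the smallest p, with a log2 fold change of -0.22 (SE 0.076, adjusted p = 0.307 in edgeR).

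Of 81 cytosolic ribosomal protein genes tested, 1 was called. This was Rps7, and whether its reads are shared with processed copies was not tested. Rps7 fell from 867 ± 80.0 to 375 ± 61.0 CPM (SD, n = 5), a log2 fold change of -1.21 (SE 0.11, adjusted p = 6.6e-05 in edgeR). No mitochondrial ribosomal protein gene showed a change of that size, since the widest member interval ended at 1.53-fold.

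Mpc2 itself checked the labels. Its CPM was 61.0, 111, 95.2, 117 and 60.9 in WT and 27.7, 17.1, 43.9, 37.0 and 35.0 in recent KO, lower in all 5 recent KO samples, with a log2 fold change of -1.46 (SE 0.24, adjusted p = 0.0156 in edgeR). The adjusted p was above 0.05 in 6 of the 21 other settings, such as limma on log2(TPM + 1) at 0.130, with the direction kept in each. The summed CPM of 13 GMP markers was 90302 to 127580 in WT and 53816 to 92232 in recent KO. Of these markers 0 were called, 10 had an unadjusted p under 0.05 in edgeR and 2 had a log2 fold change above 0. Of all genes tested, 0.331% were called, 10.2% had an unadjusted p under 0.05 and 49.6% were above 0. Summed HSC or MPP markers were 45.7 to 51.2 CPM in WT, against 56.4 to 85.0 CPM in recent KO, and summed megakaryocyte markers were 9.72 to 18.5 CPM in WT, against 22.9 to 31.5 CPM in recent KO. Neither of these sums overlapped between the groups, with 0 of 7 and 0 of 3 tested markers called and 3 of each list at an unadjusted p under 0.05. Summed erythroid markers were 14 to 49.9 CPM in WT, against 28.5 to 218 CPM in recent KO. Of 8 tested, 0 were called and 5 had an unadjusted p under 0.05. Of 11 monocyte or macrophage markers tested 3 were called and 8 had an unadjusted p under 0.05. The sum of that list was 2202 to 3552 CPM in WT, against 849 to 3255 CPM in recent KO. Summed mature neutrophil markers were 207 to 548 CPM in WT, against 213 to 943 CPM in recent KO. Of 10 tested, 0 were called and 6 had an unadjusted p under 0.05. For mast cell or basophil, B cell, and T or NK cell markers 0 were called. There 3 of 7, 0 of 3 and 0 of 1 tested had an unadjusted p under 0.05. Recent KO replicates 1 and 2, which held the highest and the lowest member sums, were alike in erythroid and in monocyte or macrophage markers and apart from the other 3 recent KO samples. Their erythroid sums were 28.5 and 32.7 CPM where the others had 136 to 218, and their monocyte or macrophage sums were 3255 and 3189 CPM where the others had 849 to 1856. The part of any of these marker lists in the members' values was not tested.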

How the data were processed

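Salmon quantification files for the 10 samples were used. Per the methods, the authors mapped paired-end SMARTseq V4 reads to the Gencode M27 transcripts, and the submitters' processing notes name Salmon 1.5.1 and DESeq2 2.11.40.6. The deposited values per transcript were estimated counts, TPM and an effective length. The authors' table of DESeq2 fold changes and p-values was not used.

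Transcripts were matched without version to GENCODE M21 (GRCm38): 137161 of 140789 matched, and 0.348% to 0.390% of estimated reads per sample were left out. Estimated counts were summed per gene and rounded, filtered with filterByExpr (minimum count 10), normalized by TMM and tested in edgeR 4.0.16 (glmQLFit, glmQLFTest), with Benjamini-Hochberg adjustment over 12381 genes. DESeq2 1.42.0, limma 3.58.1 on log2(TPM + 1) and log2(TPM + 0.1) for genes of mean TPM of at least 1, and the settings in the closing section were alternatives. Exact permutation tests were 2-sided (scipy 1.17.1). Copies were sought with BLAST 2.17.0. P-values measure the spread between these samples, each a separate mouse or pool per the methods. Intervals cover the spread between samples only.

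Members and lists were chosen with earlier results of these data known. Genes named were the 6 smallest p-values of each subunit, the 4 highest and 4 lowest by WT TPM, the Mrps18 family, Mrps30, Mrps36, non-overlapping members, and the smallest p of each pathway list. Genes called beside members, Mrpl23, Mrpl32, Mrpl35, Mrpl49 and the neighbours were named after their values were seen. One listed translation factor, Mtrfr, was not matched. The limits of 1.2-fold and 1.5-fold for intervals were set after the intervals had been seen.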

Additional observations from a re-analysis of the deposited data

Results flagged for a closer look

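In 3 of 74 groups of 5 samples examined, the most extreme CPM stood further from the others than Dixon's criterion allows, where chance alone gives about 3.7. Mrpl17, a large subunit gene with a bacterial homolog, was at 276 CPM in recent KO replicate 1 and between 228 and 238 CPM in the other 4 recent KO samples. Aurkaip1, which encodes a small subunit protein under another symbol, was at 199 CPM in recent KO replicate 1 and between 151 and 165 CPM in the others. Both were in the library that held the highest CPM for most members. Mrpl1 was at 64.3 CPM in recent KO replicate 5 and between 51.1 and 54.2 CPM in the other recent KO samples.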

How the results depend on the processing

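The count of members called stayed at 0 in each subunit under every normalization, filter, dispersion and unit tried and in DESeq2, and when any 1 sample was left out it lay between 0 and 1 in the large subunit and at 0 in the small subunit. The single call was Mrpl52 without recent KO replicate 2. The same omission gave 1 called member transcript, of Mrpl32 and annotated for decay, beside 0 otherwise. Scaling by library size alone moved the medians to 0.10 in both subunits, with the median of all genes at 0.069. Leaving out 1 sample gave medians between -0.014 and 0.051 in the large subunit and between -0.014 and 0.071 in the small subunit, both negative without recent KO replicate 1. Adding the reads of Mrpl23-ps1 to Mrpl23, an alternative chosen after seeing the data, left the large subunit median at 0.029. The log2 ratio of summed levels ranged from -0.024 to 0.090 in the large subunit and from -0.023 to 0.092 in the small subunit. No setting moved it from its main value, 0.020 and 0.023, by as much as the SD between samples. Mrpl19 turned from -0.10 to 0.13 with a transcript length offset and to 0.14 in limma on TPM with either pseudocount. The pathway lists gave 2 calls, Rps7 and mt-Nd1, by library size and in limma on TPM with either pseudocount, and 1 under the other settings. For Mpc2 the log2 fold change lost the adjusted threshold at -1.40 with the length offset, -1.46 with robust dispersions, -1.46 with the replicate block, and -1.35 and -1.38 in limma on TPM; leaving out 1 sample gave -1.60 to -1.31, and -1.41 without recent KO replicate 1 also missed the threshold. Replicate numbers did not pair the samples (correlations of same-numbered deviations between -0.17 and 0.037), and with the replicate block 0 members were called and the medians were 0.026 and 0.024. With 5 samples a group, pooled mice in 1 group, an annotation other than the authors', and reads shared with copies, small differences between the groups may go undetected.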
